A study of Bubalus bubalis with 6 samples.

Results

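Translation initiation and elongation factors carry out the first steps of protein synthesis on the ribosome. They were examined here as the protein-coding genes whose symbol starts with EIF or EEF, which were 55 of the 24616 genes listed in the gene table. The cells were buffalo muscle stem cells (MuSCs) isolated by enzymatic digestion from fetal longissimus muscle, and poly(A) RNA was sequenced from 3 GM samples and 3 DM samples. GM samples were cells proliferating in growth medium with fetal bovine serum. DM samples were cells moved at high confluence to differentiation medium with a little horse serum, in which they fuse into myotubes. Neither group carried a genetic change. The labels do not say whether the 3 samples of a group were separate cultures, so p-values measure only the spread between these samples, which may be technical. The comparison asks how the transcripts of the translation factors differed between proliferating and differentiated cells.

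In eukaryotes, eIF2 brings the initiator tRNA to the small ribosomal subunit, eIF3 holds the initiation complex together, and eIF1, eIF1A and eIF5 set how the start codon is chosen. The eIF4F complex, made of the cap-binding protein eIF4E, the scaffold eIF4G and the RNA helicase eIF4A, recruits the mRNA through its cap, and the 4E-binding proteins hold eIF4E back from eIF4G. During elongation, eEF1A delivers aminoacyl-tRNA and eEF2 moves the ribosome along the mRNA. Mammals have a pair of eEF1A genes: EEF1A1 is used by nearly all cells, while EEF1A2 is the form of mature muscle and neurons.

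The samples held 35615864 to 40305237 counts on genes. Principal components separated GM from DM samples first (80.5% of the variance), and the next component (8.79%) set DM replicate 3 apart from the other DM samples. Muscle was checked with 8 markers, of which 6 were higher in DM samples, MYF5 was lower and DES did not pass the test. All 4 markers of cycling cells were lower in DM samples, with summed levels of 1226 to 1282 CPM (counts scaled to a fixed library total) in GM and 273 to 339 in DM. All 6 fibroblast markers were higher in DM samples and abundant in both groups, with sums of 35084 to 35847 and 96764 to 122690 CPM. Adipocyte, endothelial and immune markers each summed to at most 6.27 CPM in any sample. The muscle, cycling and fibroblast lists moved with the differences between groups given below, and their part in those results was not tested. In such bulk samples, fewer cells of a type and less RNA per cell cannot be told apart.

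Most translation factors were lower in DM samples, by modest amounts, and EEF1A2 stood apart with a large rise. Of the 55 genes, 53 reached the minimum of 10 counts in total, whereas EIF1AY and EIF4E1B had 0 counts in all 6 samples. At an adjusted p under 0.05, 33 of the 53 fell in DM samples (62.3%) and 7 rose (13.2%). Over all 15576 genes tested, the shares were 31.4% lower and 31.6% higher. Past both an adjusted p under 0.05 and an absolute log2 fold change above 1, EEF1A2 was the only member called higher, where 15.0% of all genes were, and EIF4A1 and EIF4G1 were called lower, where 10.3% of all genes were. The median log2 fold change was -0.32 over the tested members and 0.03 over all tested genes. Among the 33 members that fell, log2 fold changes ran from -1.16 to -0.17 with a median of -0.49, and among the 6 that rose besides EEF1A2 they ran from 0.15 to 0.49. The CPM values of GM and DM samples did not overlap in 42 of the 53 members (79.2%), against 68.8% of all tested genes. The members took 2.31 to 2.33% of each GM library and 1.73 to 1.78% of each DM library. These are shares of all counts, so they also depend on how much of a library a few very abundant genes take, and that part was not tested.

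**Figure D1:**
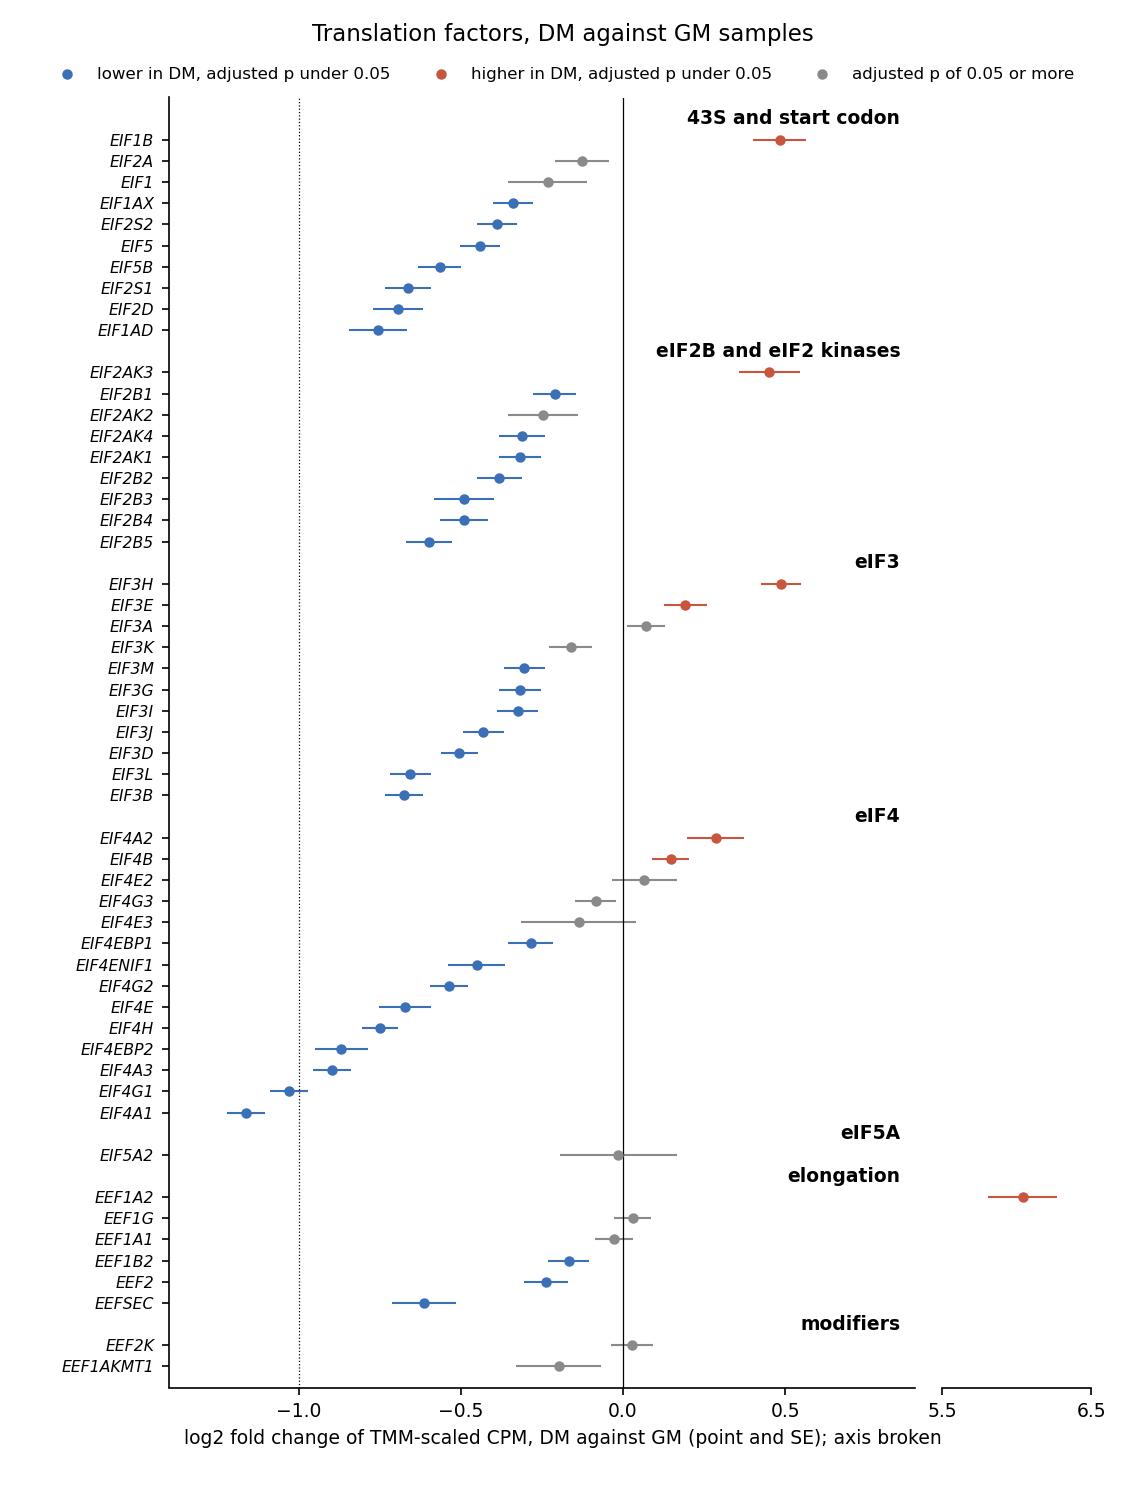
log2 fold change of each tested translation factor in DM against GM samples (point, with its standard error), in classes by role. Blue and red points passed an adjusted p of 0.05, grey points did not, and the dotted line marks a log2 fold change of -1. Blue points outnumber red ones 33 to 7, and EEF1A2 lies beyond a break in the axis at 6.04.

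Per transcript length, the order of the factors was led by elongation. In reads scaled to transcript length and library total (RPKM), the highest means in GM samples were those of EEF1A1 (2322 ± 38.3, SD, n = 3), EEF2 (1547 ± 9.52), EIF4A1 (1005 ± 30.4), EEF1G (755 ± 20.3), EEF1B2 (622 ± 25.2) and EIF4G2 (610 ± 9.63). The means of EEF1B2 and EIF4G2 differed by less than the SD of EEF1B2. In DM samples EEF1A1 (2126 ± 55.4) and EEF2 (1225 ± 75.6) again led, EEF1G (720.2 ± 23.5) and EEF1B2 (518 ± 30.7) followed, and EIF4A1 (420 ± 8.24) came next with EIF4G2 (393 ± 19.8). 22 members had a mean of at least 100 RPKM in GM samples and 20 in DM samples. These RPKM values are scaled by each sample's total only, while CPM values and log2 fold changes were also adjusted by TMM, a scaling that allows for a few very abundant genes taking a larger share of one group's reads.

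**Figure D2:**
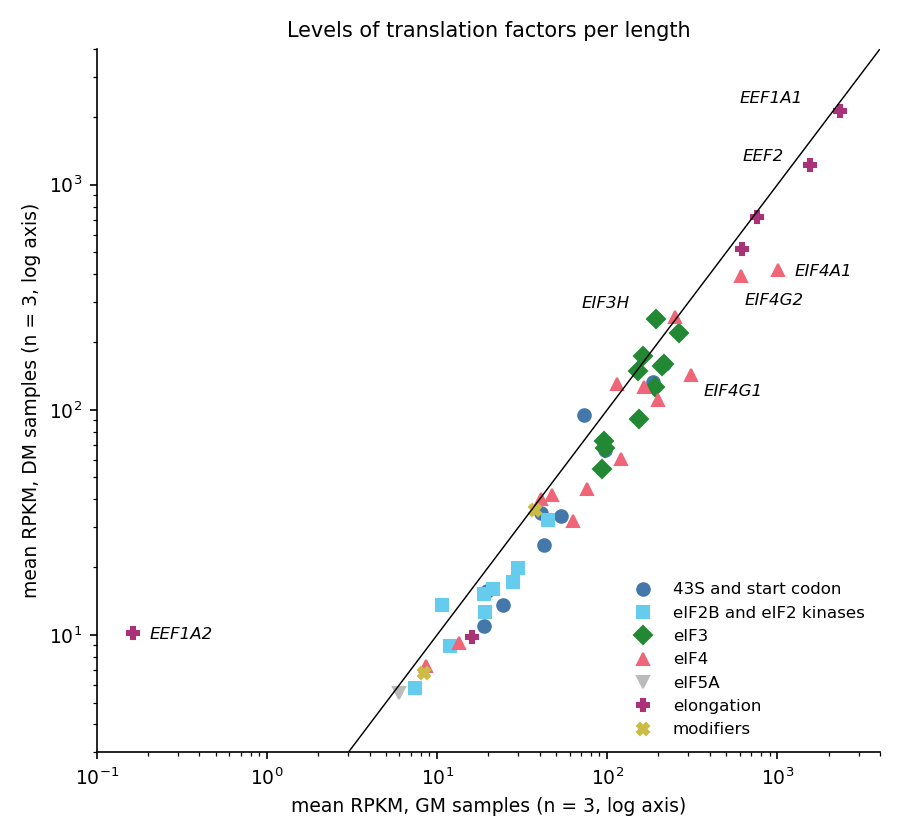
Mean RPKM of the 53 tested translation factors in GM samples (horizontal) and DM samples (vertical), both on log axes, with marker shape by class and a line where both are equal. Most points lie just under the line, EIF4A1 falls from 1005 to 420 RPKM, and EEF1A2 lies far above the line at the lowest GM level of the 53.

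EEF1A2 showed the largest difference of all members, from barely detected in GM samples to clearly expressed in DM samples. EEF1A2 (ENSBTAG00000021685, listed on chromosome 13 from 54623917 to 54631595 in a cattle annotation whose build the table does not name) had 16, 9 and 9 counts in GM replicates 1 to 3 and 748, 666 and 583 in DM replicates 1 to 3. That corresponds to 0.386, 0.216 and 0.237 CPM in GM and to 22.1, 18.2 and 15.8 CPM in DM. All DM samples were far above all GM samples. The log2 fold change was 6.04 ± 0.23 (SE), a 65.8-fold rise with an adjusted p of 1.05e-08, and it ranked 92nd by size among the 2330 genes called higher in DM. DM replicate 3, which stood apart from the other DM samples, had the lowest EEF1A2 level of that group, and without it the log2 fold change was 6.16. Under the study's rule for expressed genes, which asks that over 50% of samples reach 1 RPKM, EEF1A2 is left out, since it passed 1 RPKM in the 3 DM samples alone, and no member is then called higher. Since EEF1A2 is also used by neurons, neuronal markers were read beside it. SNAP25 had 1, 1 and 3 counts in GM samples and 3, 3 and 153 in DM samples, while EEF1A2 was high in all 3 DM samples. RBFOX3 did not reach 10 counts, and STMN2 was abundant in every sample, at 274 to 312 CPM in GM and 302 to 579 in DM. The part of neuronal transcripts in the EEF1A2 difference was not tested.

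EEF1A1 (ENSBTAG00000014534, chromosome 9 from 13233554 to 13236949) stayed the main eEF1A transcript. Its levels were 3857, 3870 and 3976 CPM in GM replicates 1 to 3 and 3958, 3647 and 3867 in DM replicates 1 to 3. The groups overlapped. The log2 fold change was -0.03 ± 0.06 with an adjusted p of 0.694, and its sign turned under alternative settings. On the RPKM scale the DM samples (2062 to 2160) lay below the GM samples (2298 to 2366). EEF1A2 made up 0.00981, 0.00548 and 0.00586% of the summed RPKM of both genes in GM replicates 1 to 3 and 0.546, 0.487 and 0.398% in DM replicates 1 to 3. The mean share was 0.00705 ± 0.0024% in GM and 0.477 ± 0.0744% in DM (SD, n = 3; two-sided exact permutation p = 0.1, the smallest that 3 against 3 samples allow). Put the other way, EEF1A1 exceeded EEF1A2 by 212 ± 34.7 times in DM samples. EEF1A1 has many near-identical copies in mammalian genomes, and how the counting treated reads that fit several places is not given in the sources used here, so its level is uncertain.

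**Figure D3:**
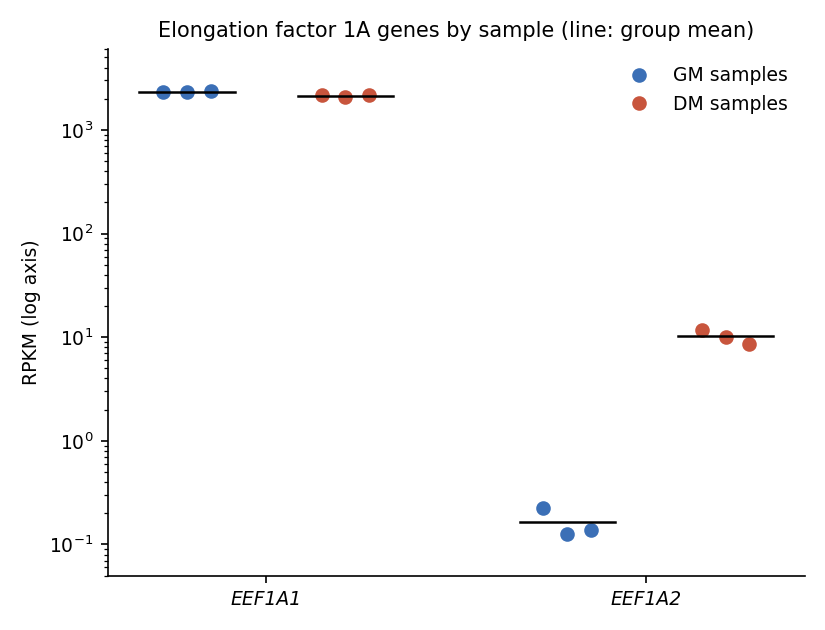
RPKM of EEF1A1 and EEF1A2 in each GM and DM sample on a log axis, with a line at the mean of each group. EEF1A1 lies between 2062 and 2366 RPKM in all 6 samples, while EEF1A2 lies between 0.126 and 0.226 in GM and between 8.62 and 11.9 in DM.

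Of the other elongation factors, 3 fell and EEF1G did not pass. EEF2, the translocase, was at 4774, 4738 and 4764 CPM in GM replicates 1 to 3 and at 4264, 3685 and 4159 in DM replicates 1 to 3. It fell by 0.24 on the log2 scale (SE 0.07, adjusted p 0.0104), with DM replicate 2 lowest. Of the eEF1 exchange factor subunits, which reload eEF1A with GTP, EEF1B2 fell by 0.17 (adjusted p 0.0393) and EEF1G had a log2 fold change of 0.03 (adjusted p 0.672). The call of EEF1B2 was lost when GM replicate 2, GM replicate 3, DM replicate 1 or DM replicate 2 was left out, and under an RPKM filter. EEFSEC, which delivers selenocysteine tRNA, fell by 0.61 (SE 0.10, adjusted p 0.000284), the largest fall among the elongation factors. EEF2K, the kinase that inactivates eEF2, was at 98.6, 98.2 and 96.7 CPM in GM replicates 1 to 3 and 106, 99.4 and 93.5 in DM replicates 1 to 3, with overlapping groups and an adjusted p of 0.746. EEF1AKMT1, a methyltransferase of eEF1A, was at 11.4, 12.2 and 10.4 CPM and at 8.47, 9.92 and 11.3 CPM, also with overlapping groups (adjusted p 0.21). EIF5A2, a hypusine-bearing factor that helps ribosomes over difficult stretches such as proline runs, was at 3.91, 3.82 and 4.22 CPM in GM and at 4.32, 4.34 and 3.16 in DM (adjusted p 0.95). For these 3 genes the groups overlapped and the difference did not pass in the main fit. Without DM replicate 3, EEF1AKMT1 passed as lower (log2 fold change -0.30, adjusted p 0.0392).

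The eIF4 class held both members that were called lower. Of its 14 tested genes, 9 fell, 2 rose and 3 did not pass, with a median log2 fold change of -0.49. Summed over the class, levels went from 3012 to 3036 RPKM in GM samples to 1790.1 to 1861 in DM samples, in values scaled by each sample's total only. EIF4A1, the main eIF4A helicase (ENSBTAG00000000132, chromosome 19 from 27915413 to 27921421), was at 1672, 1673 and 1762 CPM in GM replicates 1 to 3 and at 784, 757 and 742 in DM replicates 1 to 3. The groups lay far apart, with little spread within either. The log2 fold change was -1.16 ± 0.06, a 2.24-fold fall with an adjusted p of 5.75e-08. EIF4G1, the main eIF4G scaffold (ENSBTAG00000012881, chromosome 1 from 83466847 to 83484338), was at 1522, 1569 and 1462 CPM in GM and at 745, 721 and 765 in DM, again with no overlap. Its log2 fold change was -1.03 ± 0.06, a 2.04-fold fall with an adjusted p of 1.43e-07. This lay just past the fold threshold: without DM replicate 2 it was -0.99, and when the null was itself a 2-fold change, EIF4A1 alone was called lower.

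EIF4E, the cap-binding protein, fell by 0.67 (SE 0.08, adjusted p 2.87e-05), so each of the 3 parts of eIF4F had its main gene lower in DM samples. Its inhibitors were lower as well: EIF4EBP2 fell by 0.87 (adjusted p 4.99e-06) and EIF4EBP1 by 0.29 (adjusted p 0.0039). EIF4ENIF1, which carries eIF4E into the nucleus and into P-bodies, fell by 0.45. EIF4H, a cofactor of the helicase, fell by 0.75, whereas EIF4B, another cofactor, rose by 0.15 with an adjusted p of 0.0455, a call lost under 8 of 14 alternatives. EIF4A3, which despite its name is a core part of the exon junction complex, fell by 0.90 (adjusted p 3.59e-07). EIF4G2, an eIF4G relative that does not bind eIF4E and serves cap-independent initiation, fell by 0.54 from a high level, 2153 ± 29.2 to 1485 ± 55.3 CPM (SD, n = 3). The 3 members of the class that did not pass were EIF4G3, EIF4E2 and EIF4E3, with log2 fold changes of -0.08, 0.07 and -0.14.

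**Figure D4:**
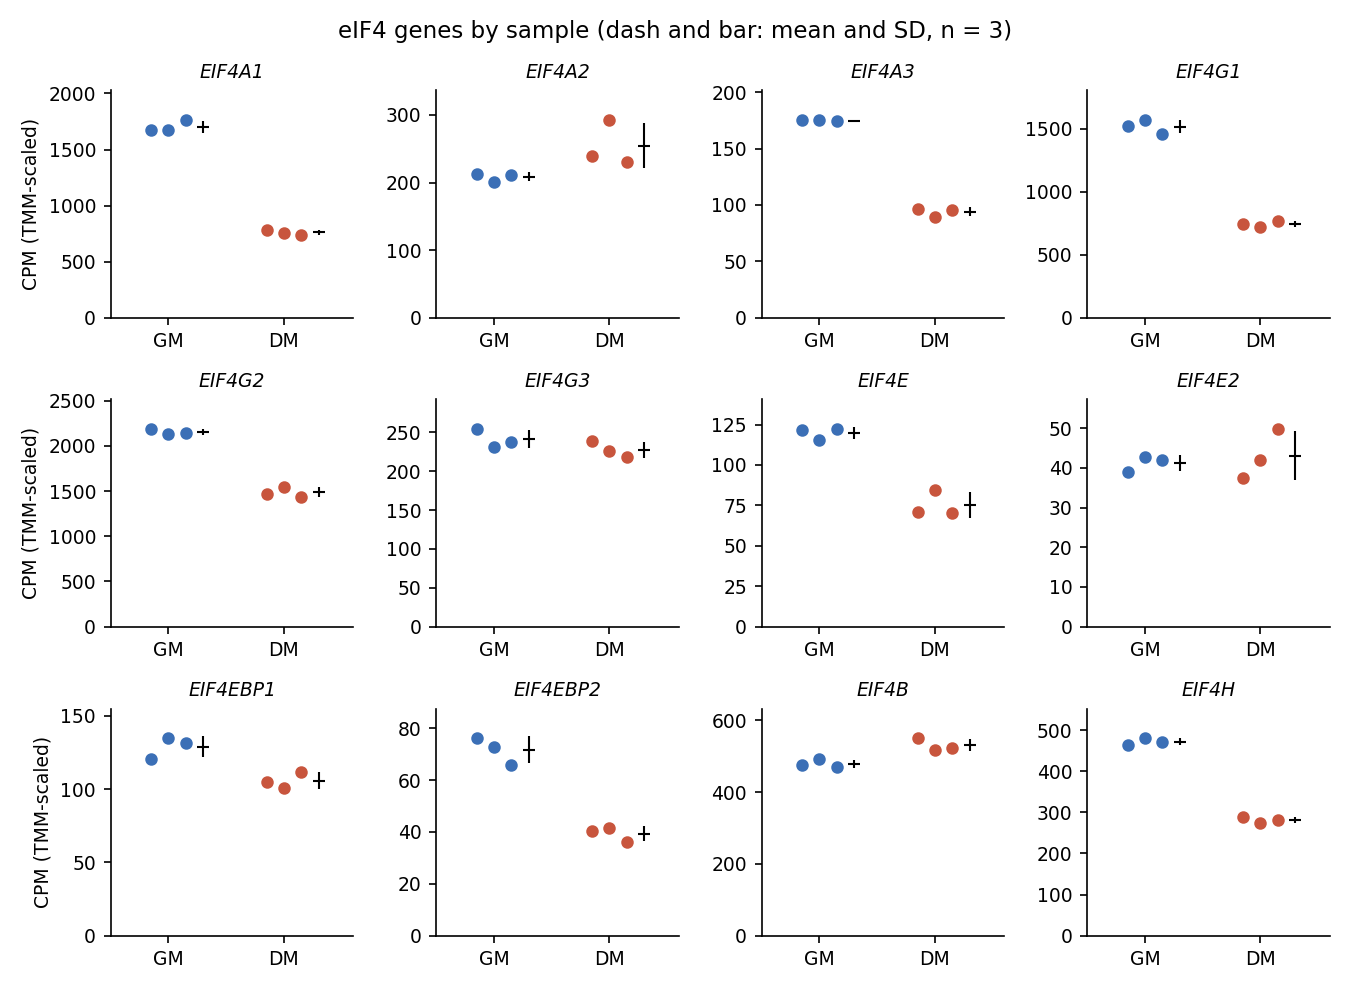
CPM after TMM scaling of 12 eIF4 genes in each GM (blue) and DM (red) sample, on axes that start at 0, with the mean and SD of each group (n = 3). EIF4A1, EIF4A3, EIF4G1, EIF4G2, EIF4E, EIF4EBP2 and EIF4H drop with no overlap, while EIF4G3 and EIF4E2 overlap.

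The balance between paralogs of the same role differed between GM and DM samples. Ratios of RPKM within a sample do not depend on how samples are scaled to each other, and they were compared for 7 pairs. EIF4A1 exceeded EIF4A2, its close homolog, by 8.47, 8.97 and 8.97 times in GM replicates 1 to 3 and by 3.53, 2.79 and 3.46 times in DM replicates 1 to 3. EIF4A2 itself rose by 0.29 on the log2 scale (SE 0.09, adjusted p 0.0148), a call lost without GM replicate 2 and with library size alone. EIF4G1 exceeded EIF4G3, a scaffold of the same kind, by 6.23, 7.05 and 6.38 times in GM and by 3.24, 3.32 and 3.65 times in DM. The ratio of EIF4E to EIF4E2, a weaker cap-binding homolog that takes part in repression, was 1.99, 1.73 and 1.85 in GM replicates 1 to 3 and 1.2, 1.28 and 0.9 in DM replicates 1 to 3, so the order of this pair turned in DM replicate 3. That of EIF4E to EIF4E3 went from 8.91 ± 1.11 to 6.27 ± 1.35 (SD, n = 3), a log2 shift of 0.52 that was 0.34 without DM replicate 1. In these 4 pairs, as in the EEF1A pair, the lead of the gene with more RPKM in GM samples was smaller in DM samples, or, for EIF4E over EIF4E2 in DM replicate 3, lost. The ratio of EIF4EBP1 to EIF4EBP2 went the other way, from 2.65 ± 0.305 to 3.98 ± 0.514, since EIF4EBP2 fell more. For EIF1 and EIF1B the ratio went from 0.27 ± 0.0347 to 0.165 ± 0.013, so the lead of EIF1B, which had more RPKM in GM samples, grew. The row named EIF1 may be a copy of that gene, as described below, so this pair is uncertain. GM and DM samples did not overlap in any of the 7 pairs. Each pair had a two-sided exact permutation p of 0.1, also after adjustment over the 7 pairs. That is the smallest p that 3 against 3 samples allow. Single genes did not overlap in CPM for 68.8% of all tested genes, and no share was taken over other pairs of genes. The pairs with EIF4E2 and EIF4E3 share EIF4E.

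Of the 10 tested genes of the 43S complex and start codon choice, 7 fell and EIF1B rose. EIF1AX, which helps scanning and has the highest RPKM of the class, was at 152, 154 and 166 CPM in GM replicates 1 to 3 and at 124, 129 and 120.5 in DM replicates 1 to 3, a fall of 0.34 (SE 0.06, adjusted p 0.000716). EIF1AD, named for its eIF1A-like domain, showed the largest fall of the class, from 24.3, 24.5 and 26.4 CPM to 15.7, 13.6 and 15.2 CPM (log2 fold change -0.76 ± 0.09, adjusted p 2.63e-05). Neither gene's groups overlapped. The eIF2 subunit genes EIF2S1 and EIF2S2 fell by 0.66 and 0.39, and EIF5, the GTPase activator of eIF2, by 0.44. EIF5B, which joins the ribosomal subunits, had a log2 fold change of -0.56 (adjusted p 2.93e-05). EIF2D, which can deliver initiator tRNA without eIF2, fell by 0.69, while EIF2A had a log2 fold change of -0.13 and did not pass. EIF1B, a close homolog of EIF1, was at 66.5, 66.6 and 69.0 CPM in GM and at 95.8, 103 and 83.2 in DM, and rose by 0.48 (SE 0.08, adjusted p 0.000401). EIF1 did not pass (log2 fold change -0.23, adjusted p 0.122). The row named EIF1 spans a single block on chromosome 3 from 60346812 to 60347472. Its length of 661 bases equals that span, so its gene model has no intron. It may be a copy of EIF1 rather than the main gene, so its level and change may not be those of EIF1. Whether reads of other EIF1 copies were counted there was not tested.

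All 5 subunits of eIF2B, the exchange factor that recharges eIF2 with GTP, were lower in DM samples. EIF2B5, the catalytic subunit, was at 69.1, 66.2 and 68.8 CPM in GM replicates 1 to 3 and at 43.1, 43.3 and 48.4 in DM replicates 1 to 3 (log2 fold change -0.60 ± 0.07, adjusted p 2.76e-05). EIF2B2, the subunit with the highest RPKM, was at 61.2, 66.1 and 66.1 CPM and at 51.2, 46.7 and 50.6 CPM, a fall of 0.38 (SE 0.07, adjusted p 0.00067). EIF2B3, EIF2B4 and EIF2B1 fell by 0.49, 0.49 and 0.21, of which the last lost its call without GM replicate 3, without DM replicate 1 and under an RPKM filter. The kinases that switch eIF2 off differed among themselves. EIF2AK1 (HRI, which senses heme) fell by 0.32 and EIF2AK4 (GCN2, which senses amino acid shortage) by 0.31, and EIF2AK2 (PKR, which senses double-stranded RNA) had a log2 fold change of -0.25 with an adjusted p of 0.0673. EIF2AK3 (PERK, which senses stress of the endoplasmic reticulum) was at 49.6, 46.5 and 44.02 CPM in GM and at 56.1, 63.5 and 71.9 in DM. It rose by 0.45 (SE 0.09, adjusted p 0.00162), the one eIF2 kinase to do so. EIF2AK1 overlaps ANKRD61 on the opposite strand, and whether counting used strand is not given in the sources used here.

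The eIF3 subunits, which form one complex, did not move together. Of the 11 listed by symbol, 7 fell, 2 rose and EIF3K and EIF3A did not pass. EIF3B, a core subunit, was at 322, 338 and 326 CPM in GM replicates 1 to 3 and at 212, 207 and 198 in DM replicates 1 to 3, the largest fall of the class (log2 fold change -0.68 ± 0.06, adjusted p 2.47e-06). EIF3K, the subunit with the highest mean RPKM, was at 181, 204 and 203 CPM and at 174, 180.1 and 171 CPM, with a log2 fold change of -0.16 and an adjusted p of 0.0519. It passed as lower with library size alone, among protein-coding genes only, without GM replicate 1 and in the transcript table (adjusted p 0.0335). The transcript counts of EIF3K equal its gene counts, so only the fit over all features differed there. EIF3L, the partner of EIF3K, fell by 0.66, and EIF3D, which can bind the cap of some mRNAs, by 0.50. EIF3J, EIF3I, EIF3G and EIF3M fell by 0.43, 0.32, 0.32 and 0.30. In contrast, EIF3H rose from 228, 217 and 239 CPM to 329, 307 and 323 CPM, with no overlap (log2 fold change 0.49 ± 0.06, adjusted p 4.86e-05). EIF3E rose by 0.19 (adjusted p 0.0248), a call lost without any one of the GM samples, without DM replicate 2 and with library size alone. EIF3A, the largest subunit and scaffold, had a log2 fold change of 0.07 (adjusted p 0.322). In RPKM, EIF3H lay below EIF3K in GM samples (194 ± 9.59 and 263 ± 17.2) and above it in DM samples (254 ± 5.04 and 219.9 ± 8.6; SD, n = 3).

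**Figure D5:**
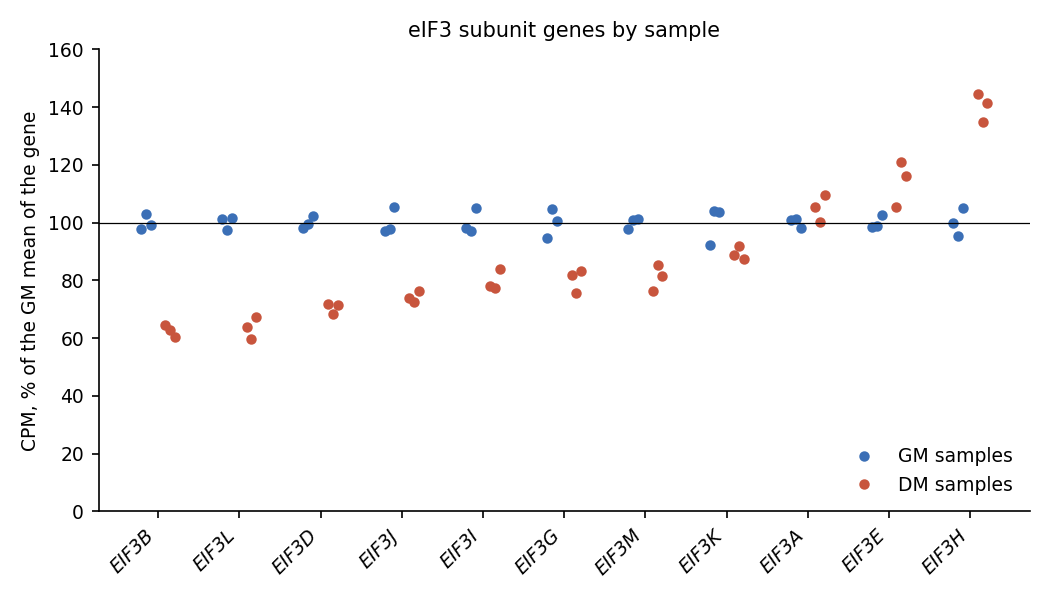
CPM of the 11 eIF3 subunit genes in each sample as a percentage of the gene's GM mean, ordered by log2 fold change from EIF3B (-0.68) to EIF3H (0.49). The 3 DM samples lie below the GM samples for the genes on the left and above them for EIF3E and EIF3H. For EIF3E the DM samples spread from 247 to 283 CPM, with the lowest near the highest GM sample (240 CPM).

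Among genes that work with these factors but carry other symbols, more were lower than higher in DM samples, and most lists held both. Of 47 tested genes in 5 lists, 21 were lower and 9 higher in DM samples at an adjusted p under 0.05, beside 31.4% and 31.6% of all genes. Only DEPTOR, an inhibitor of mTOR, was called, with 1, 4 and 1 counts in GM samples and 37, 55 and 33 in DM samples (adjusted p 4.08e-05). It reached the minimum of 10 counts only through the DM samples, and its level there was low, at 0.892 to 1.5 CPM. In the list of mTORC1 and MNK, the kinases that act on the 4E-binding proteins and on eIF4E, 4 genes were lower and 4 higher of 12. MLST8 and RPTOR, subunits of mTORC1, fell by 0.90 and 0.61, while the kinases MKNK1 and MKNK2 rose by 0.83 and 0.50. Of 5 termination and recycling genes, the release factors ETF1 and GSPT1 and the recycling factor ABCE1 fell by 0.70, 0.68 and 0.61, and HBS1L rose by 0.24. Of 12 genes of poly(A)-binding and mRNP proteins, 6 were lower and 2 higher, and PABPC1 had a log2 fold change of -0.05 (adjusted p 0.469). Of 10 genes of alternative initiation and eIF partners, 4 were lower and 2 higher, among them DOHH, which completes the hypusine of eIF5A, with a fall of 0.82, and PPP1R15A, which directs dephosphorylation of eIF2, with a rise of 0.58. ATF4, whose translation responds to eIF2 phosphorylation, had a log2 fold change of -0.00 (adjusted p 0.993). Of 8 mitochondrial translation factors, 4 were lower, including the elongation factor TUFM (a fall of 0.61), and none higher.

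The mRNA transcript table listed 58 transcripts of the 55 genes. Only EIF4G3 had more than 1, with 4 transcripts whose log2 fold changes ran from -0.13 to -0.09. Of the 56 transcripts tested, 34 were lower and 6 higher at an adjusted p under 0.05, where each direction held 32.3% of all 16352 tested transcripts. Each of the other genes had 1 transcript listed, with the same counts as its gene, so this tally is no separate evidence. EIF4G3 had 10537 counts as a gene in GM replicate 1, and its transcripts had 2434, 9103, 10368 and 10537. Reads were thus counted for more than 1 of its transcripts, so isoforms could not be compared for any member. Small nucleolar RNA genes lie within or overlap 10 members, among them EIF4A1, EIF4A2, EIF4G1 and EEF2, all on the same strand.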

How the data were processed

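Poly(A) RNA of 3 GM and 3 DM samples of buffalo MuSCs was compared. The raw counts per gene and per mRNA transcript were deposited by the authors, who aligned reads with HISAT2. For the deposited RPKM values, the authors divided these counts by the Length column (bases per gene) and by each sample's total. Submitters' notes also name Bowtie 0.12.2 and the mouse builds mm8 and mm9, without their role. The study's methods name a buffalo reference genome, whereas the tables use cattle Ensembl identifiers and name no build; how the gene rows were made from the buffalo genome is not given in the sources used here, so coordinates are printed as listed. Lists holding the authors' own fold changes and p-values, and the ncRNA table, were not used. No sequences are shown, since none were available for these gene models.

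Counts of features with at least 10 counts in total were tested with edgeR 4.0.16 (quasi-likelihood test, TMM, Benjamini-Hochberg over all features tested) in R 4.3.3, without covariates. A call needed an adjusted p under 0.05 and an absolute log2 fold change above 1; counts at an adjusted p under 0.05 alone are given beside it. Standard errors came from the F statistic. RPKM ratios and shares were compared with exact permutation tests (scipy 1.17.1, Python 3.11.15). The fits were tested on simulated data. Alternatives were DESeq2 1.42.0, other scalings and filters, a replicate block and each sample left out.

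The members and lists were chosen with earlier results of these data known. Members given by sample were EEF1A1, EEF1A2, those called and, in each class, those with the largest change and the highest mean RPKM; EEF2, EIF1B, EIF2AK3 and EIF3H, and the partner genes other than DEPTOR, were added after their values were seen. EIF2S3, EIF3C, EIF3F, EIF5A, EIF6, EEF1D and EEF1E1 are not among the symbols used here and were not analysed here.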

Additional observations from a re-analysis of the deposited data

How the results depend on the processing

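With library size alone, 4 members passed as higher and 38 as lower at an adjusted p under 0.05. The median log2 fold change of members was then -0.42, beside -0.32 in the main fit. The median over all 15576 tested genes also moved down, from 0.03 to -0.07. Among all tested genes, 4269 then passed as higher and 5528 as lower, beside 4920 and 4893 in the main fit. Under the RPKM filter (at least 1 in more than 50% of samples), 2197 genes, 0 members higher and 1 member lower were called, with a median of -0.26; EEF1A2 does not pass this filter. In the test against a fold change of 2, 2293 genes, 1 member higher and 1 member lower were called, beside 3936 genes by the main rule. Leaving out each sample in turn gave 1 to 2 members called lower, 4 to 7 higher and 31 to 35 lower at an adjusted p under 0.05, and a median of -0.34 to -0.30; without DM replicate 3, the counts were 7 and 34. For genes near 0 the sign turned: EEF1A1 was at 0.028 under the RPKM filter and from -0.046 to 0.0199 with a sample left out (the last without DM replicate 2), EEF2K at -0.072 with library size alone and from -0.013 (without DM replicate 1) to 0.078 with a sample left out, and EIF5A2 at 0.042 under the RPKM filter and from -0.078 to 0.13 with a sample left out (0.028 without GM replicate 3 and 0.13 without DM replicate 3). The cause was not tested. Of 181 values of 13 named members under alternatives, 170 kept their direction and their side of the adjusted p threshold of 0.05. The fold threshold was not part of this count: EIF4G1 was at -0.97 under the RPKM filter and at -0.99 without DM replicate 2. Same-numbered GM and DM samples did not deviate together (r of -0.01, -0.02 and -0.01). With 3 samples a group, such values cannot show whether these samples share an origin, which the labels do not say. A replicate block gave 33 members lower and 6 higher. EIF3E, EIF4B and EEF1B2, with changes of at most 0.19 on the log2 scale, lost their calls under 5 to 8 of 14 alternatives.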
